A study of Mus musculus with 6 samples.

Results

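Of the 3878 Bcl6 peaks deposited for cortical progenitors, 246 lay at promoters shared by 2 genes. A peak was taken when at least 2 genes in the authors' gene list had their transcription start site (TSS) within 1000 bp of the peak centre, whatever the peak's width. Another 1925 peaks had 1 such gene and 1707 had none, so that 11.3% of the 2171 promoter peaks were shared (exact 95% binomial interval 10.0 to 12.7%). The rule used position alone, and no enrichment value entered it. The 246 peaks carried 493 entries of 491 genes. Taf9/Rad17 was the only peak with 3 entries, of which Taf9 gave 2, and Supt20 was listed 2 times at 1 peak, which left 245 peaks with different gene symbols.

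The cells were A2 lox.Cre Bcl6 mouse embryonic stem (ES) cells, a line in which Bcl6 can be switched on with tetracycline-type drugs, differentiated in culture into cortical progenitors. At day 12 they received doxycycline at 1 µg per ml for 24 h before chromatin was collected, and this held for all 6 libraries: 3 from chromatin pulled down with a Bcl6 antibody and 3 of input DNA. The 3 libraries of each kind were pooled before peaks were called, so each peak has a single value, and peaks are not replicates of each other. Intervals of shares below cover counting error only, those of medians reflect the spread between peaks, and none covers variation between libraries. Comparisons between classes of peaks are descriptions without a test, and the defining markers of cortical progenitors could not be checked in chromatin data. All libraries came from 1 engineered line with induced Bcl6, and cells without induction were not analysed here.

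Bcl6 is a zinc finger protein with a BTB domain that binds DNA and recruits corepressors. It is best known as the master regulator of germinal centre B cells, and in the developing cortex it promotes the passage from progenitor to neuron. Many mammalian genes start back to back, with a short stretch between 2 oppositely oriented TSSs that serves both of them. Such divergent promoters are typically rich in CpG, lack a TATA box and drive housekeeping genes of RNA processing, mitochondria, protein folding and DNA repair. The ETS family, GABPA in particular, is known to bind many of them.

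The stretches between the TSSs are shown for the 6 divergent pairs of highest fold enrichment with an entry in the promoter table, because these are the sequences over which the peaks sat. They come from RefSeq promoters of GRCm38.p6, which is the mm10 build, and read 5′ to 3′ on the plus strand. Where RefSeq's starts lie farther apart than the table's window, the 250 bases before the plus-strand gene are given. Capitals mark matches on either strand to 7 motifs: TTCCNNGAA (letters found in sites of Bcl6 and STAT), TTCCTAGAA (a Bcl6 core), CCGGAAG (ETS), GGGCGG (Sp), CCAAT (NF-Y), GCATGCGC (NRF1) and TATAAA (the TATA box). Overlapping or adjoining matches run together. The regions are Proser1/Nhlrc3 at chr3:53463545-53463794, 4732415M23Rik/Chmp1a at chr8:123212789-123212857, Nup188/Dolk at chr2:30286355-30286415, Spsb3/Nubp2 at chr17:24886424-24886673, Bzw2/Ankmy2 at chr12:36156874-36157123 and Psma2/Mrpl32 at chr13:14613038-14613241.
Proser1/Nhlrc3: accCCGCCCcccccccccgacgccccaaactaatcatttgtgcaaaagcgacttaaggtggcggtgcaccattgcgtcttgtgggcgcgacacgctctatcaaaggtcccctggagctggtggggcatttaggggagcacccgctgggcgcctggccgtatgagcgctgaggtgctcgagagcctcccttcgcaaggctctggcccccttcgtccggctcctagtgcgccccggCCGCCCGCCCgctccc
4732415M23Rik/Chmp1a: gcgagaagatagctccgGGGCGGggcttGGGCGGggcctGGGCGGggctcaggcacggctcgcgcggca
Nup188/Dolk: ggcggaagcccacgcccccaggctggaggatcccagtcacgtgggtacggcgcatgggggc
Spsb3/Nubp2: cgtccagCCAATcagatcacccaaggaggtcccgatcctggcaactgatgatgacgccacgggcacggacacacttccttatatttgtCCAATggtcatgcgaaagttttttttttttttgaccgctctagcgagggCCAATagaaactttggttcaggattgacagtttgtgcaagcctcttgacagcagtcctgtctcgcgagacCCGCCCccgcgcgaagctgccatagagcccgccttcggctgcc
Bzw2/Ankmy2: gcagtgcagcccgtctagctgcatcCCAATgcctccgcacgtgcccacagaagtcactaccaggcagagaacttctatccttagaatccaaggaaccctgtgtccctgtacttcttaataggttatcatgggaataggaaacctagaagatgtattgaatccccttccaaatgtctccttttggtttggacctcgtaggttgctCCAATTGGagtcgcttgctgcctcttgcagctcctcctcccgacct
Psma2/Mrpl32: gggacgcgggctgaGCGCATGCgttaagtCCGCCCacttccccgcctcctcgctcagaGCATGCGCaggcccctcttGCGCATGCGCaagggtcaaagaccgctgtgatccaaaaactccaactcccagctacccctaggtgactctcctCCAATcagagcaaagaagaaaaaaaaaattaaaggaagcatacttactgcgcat

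The 6 stretches differed in what they held. The 69 bases between 4732415M23Rik and Chmp1a had 3 Sp matches in a row and a GC content of 78.3%. Psma2/Mrpl32 had 4 NRF1 matches, some of them 1 palindrome read on both strands, besides 1 Sp and 1 NF-Y match. Spsb3/Nubp2 and Bzw2/Ankmy2 each had 3 NF-Y matches, and the Bzw2/Ankmy2 stretch had a GC content of 50.8%. The 61 bases between Nup188 and Dolk held none of the 7 motifs. None of the 6 held TTCCNNGAA.

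A textbook pair among the members is Hspd1/Hspe1, which encodes the mitochondrial chaperonin and its lid and is shown at chr1:55087933-55088147. It was chosen after its values were seen.
Hspd1/Hspe1: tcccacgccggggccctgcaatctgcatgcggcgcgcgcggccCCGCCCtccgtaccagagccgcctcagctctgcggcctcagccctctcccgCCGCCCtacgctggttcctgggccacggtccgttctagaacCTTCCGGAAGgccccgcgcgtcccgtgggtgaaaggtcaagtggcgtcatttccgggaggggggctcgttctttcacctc

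RefSeq puts 215 bases between the 2 starts of Hspd1 and Hspe1. They held 24 CpG dinucleotides, 2 Sp matches and 2 ETS matches that overlap as 1 palindrome. The peak over them had 108 tags in 2195 bp and a fold enrichment of 19.8, close to the median of the shared peaks.

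Enrichment at shared promoters was moderate. Fold enrichment, the authors' ratio of pooled ChIP tags to the background expected from input, had a median of 19.7 over the 246 peaks (interval 19.0 to 21.3) and ran from 8.36 to 59.4. The median was 20.4 at promoters of 1 gene (20.0 to 21.0) and 21.9 away from promoters (21.3 to 22.6). The intervals of the 2 promoter classes overlapped. Of the shared peaks, 29 (11.8%, 8.04 to 16.5%) reached 30-fold, beside 17.6% of all peaks, 13.9% of single-gene promoter peaks and 22.5% of peaks away from promoters. At 50-fold the numbers were 3 of 246 shared peaks (1.22%), 31 single-gene promoter peaks (1.61%) and 88 peaks away from promoters (5.16%), beside 3.15% of all peaks. The most enriched peaks of the data set lay elsewhere: the highest shared peak ranked 83rd of 3878, while the maxima were 255 at promoters of 1 gene and 269 away from promoters.

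The other measures of the peaks also lay close together at both kinds of promoter. The median p-value score, which is −10 log10 p as the peak caller gave it, was 74.2 at shared and 71.4 at single-gene promoters. A shared peak held a median of 61 tags (interval 59 to 66) and a single-gene promoter peak 59 (58 to 61). Tags per kb of peak came to 41.0 and 40.6, and the median widths to 1492.5 and 1435 bp. Of the shared peaks, 57 (23.2%, 18.0 to 29.0%) were wider than 2 kb, beside 22.8% of all peaks and 19.4% of single-gene promoter peaks. All 246 had an empirical false discovery rate of at most 5%, the highest being 3.77%, beside 99.0% of all peaks.

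**Figure D1:**
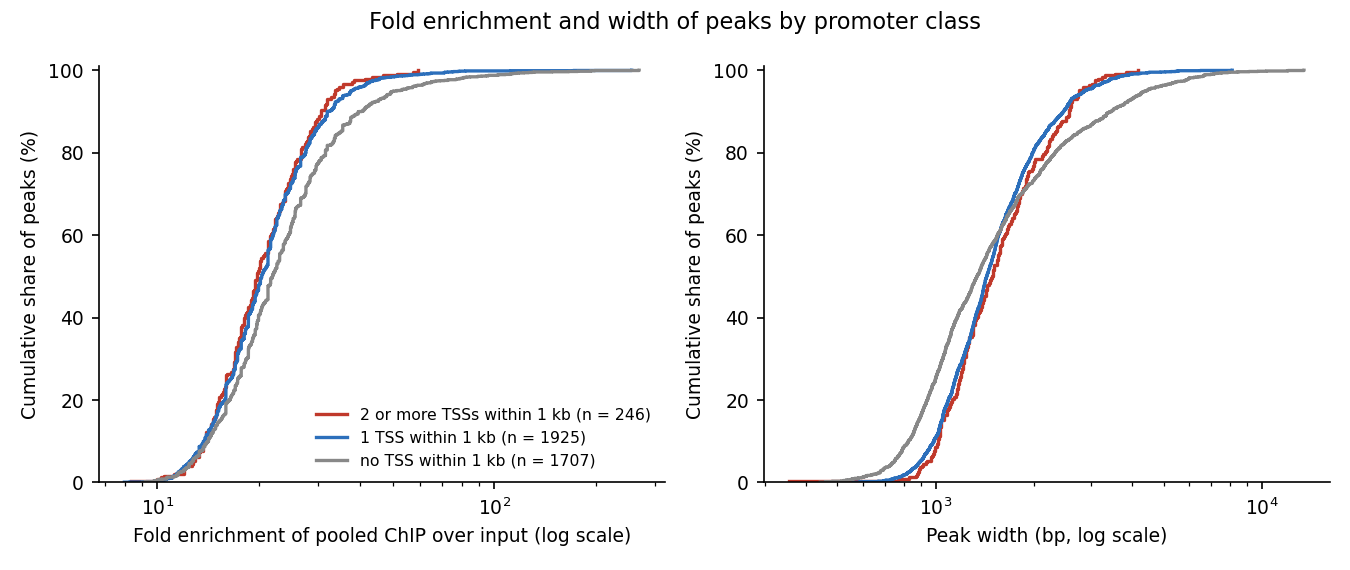
Cumulative shares of peaks by fold enrichment (left) and by peak width in bp (right), both on log axes, for peaks with at least 2, with 1 and with no TSS within 1 kb. The curves of the 2 promoter classes nearly coincide in fold, with medians of 19.7 and 20.4, and the curve of peaks away from promoters lies to the right with a median of 21.9.

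Wide shared peaks were less enriched than narrow ones, as at other promoters. The 189 shared peaks of at most 2 kb had a median of 21.3-fold and 55 tags, and the 57 wider ones had 17.3-fold and 110 tags. The corresponding medians at single-gene promoters were 21.3 and 17.5-fold. Across the 246 peaks Spearman's rho between fold and width was −0.39, and between tags and width 0.88. All 3 measures come from the same peak call. The wide peaks also lay farther from their second TSS, at a median of 541 bp against 259 bp for the narrow ones.

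The gene pairs at the top by fold had varied roles. Dapk3, a death-associated protein kinase, shared its peak with the unnamed transcript 4930442H23Rik at chr10:81182141-81183712, and this peak had 176 tags, 59.4-fold enrichment and a score of 412, the highest on both scales. Its centre was 81 bp upstream of the Dapk3 TSS, and the second TSS was 923 bp away. The same peak also had the highest empirical false discovery rate of the shared peaks, 3.77% against a median of 0.8%. Lrrc29/Tmem208, of which Tmem208 acts in protein targeting to the endoplasmic reticulum, followed at 57.1-fold with 65 tags at chr8:105325687-105326863. Rmnd1, a gene needed for mitochondrial translation, and 1700052N19Rik had 51.2-fold enrichment with 56 tags. These were the only 3 shared peaks above 50-fold.

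Proser1/Nhlrc3 had 46.5-fold enrichment and 73 tags. 4732415M23Rik/Chmp1a, with a subunit of the membrane-cutting ESCRT machinery, had 43.3-fold from 36 tags. Nup188/Dolk, a nuclear pore protein and the kinase that makes dolichol phosphate for glycosylation, had 41.2-fold from 55 tags. Below them the values came close together. Spsb3/Nubp2, with an iron-sulfur assembly factor, had 38.4-fold, Bzw2/Ankmy2 37.8-fold and both Psma2/Mrpl32 and Lsmd1/Cyb5d1 35.5-fold. Psma2 is an alpha subunit of the proteasome core and Mrpl32 a protein of the large mitochondrial ribosomal subunit.

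Ranking by p-value score brought in wider peaks with more tags. Srsf2/Mfsd11, with the splicing regulator Srsf2, came second at a score of 337 from 198 tags over 2753 bp and 29.3-fold. C130040N14Rik/AI413582 had a score of 274, and the histone pair Hist2h2bb/Hist2h3b one of 234 at only 17.0-fold. Next came the linker histone gene H1fx with Gm5577 at 219, the gamma-actin gene Actg1 with 0610009L18Rik at 211 and Hist1h2bk/Hist1h2ah at 197. Ints9/Hmbox1, with an Integrator subunit that processes small nuclear RNA, had a score of 182 and Lrsam1/Rpl12 one of 180.

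At the low end stood Akt1s1/Tbc1d17, which pairs the mTORC1 inhibitor PRAS40 with a Rab GTPase regulator, at 8.36-fold from 161 tags. 1700123O20Rik/Acin1 had 9.97-fold, Ankrd17/Gm9958 10.3-fold and BC056474/Wdr83 10.45-fold. All 4 scores lay between 50.42 and 60.8, where the lowest score of any peak was 50.03. The widest shared peak, Hist1h3c/Hist1h2bb, spanned 4178 bp with 243 tags and 16.9-fold. It was followed by 0610009L18Rik/Actg1 at 3836 bp, Mrps34/Eme2 at 3539 bp and Slc25a40/Dbf4 at 3299 bp.

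The rule drew a line at 1000 bp, and peaks on either side of it had a similar range of values. Just inside lay Slc25a40/Dbf4, with the second TSS at 986 bp and 19.3-fold, Ptms/A230083G16Rik at 982 bp and 15.0-fold, and Hist1h2ac/Hist1h2bc at 981 bp and 23.0-fold. Hnrnph3/Pbld2 at 976 bp had 15.1-fold and Hist1h2bk/Hist1h2ah at 966 bp 34.2-fold. Just outside lay a cluster of 4 histone genes from Hist1h2bg to Hist1h3d at 1029 bp with 43.4-fold, Leprel4/Fkbp10 at 1082 bp with 22.3-fold and Rps2/Rnf151 at 1105 bp with 25.5-fold. Babam1/Ushbp1 at 1113 bp had 25.3-fold and Rpl7/Rdh10 at 1120 bp 16.3-fold.

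Most shared promoters were divergent, though how often close starts are divergent where no peak lies was not counted. The strand and position of each listed TSS were recovered from its signed distance and the gene's ends, which succeeded for both TSSs at 205 of the 246 peaks. At 161 peaks (65.4% of 246, 59.1 to 71.4%) the genes started back to back and pointed away from each other. At 37 the opposed genes overlapped at their 5′ ends, at 7 both genes lay on the same strand, and 41 could not be placed. The divergent starts were a median of 205 bp apart, from 3 bp at Dhrs1/Nop9 and Slc7a6os/Prmt7 to 1369 bp at Zscan10/Zfp13. The overlapping starts were a median of 224 bp apart, from 6 bp at Mgme1/Snx5.

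Fold enrichment had similar medians in every arrangement. They were 20.2 at divergent, 18.1 at overlapping, 21.6 at same-strand and 19.5 at unplaced pairs, with wide quartile ranges (16.7 to 25.3 at divergent pairs). Over the 161 divergent pairs Spearman's rho between fold and the distance of the starts was −0.13. The closest pairs, Dhrs1/Nop9 at 20.3-fold and Slc7a6os/Prmt7 at 17.0-fold, had values like those of the farthest divergent pairs, Tst/Mpst at 20.2-fold with 1245 bp and Zscan10/Zfp13 at 19.0-fold. Among the same-strand pairs, Ube2d2a/Gm16490 with 1241 bp had 21.6-fold and Hist1h2be/Hist1h1e, the farthest of all with 1378 bp, 12.8-fold. Nop9 acts in ribosome biogenesis, Prmt7 is an arginine methyltransferase, and Tst and Mpst are related sulfurtransferases. Of the 7 same-strand peaks, 3 had 2 histone genes within the limit, and 1 was the Supt20 peak with its 2 entries.

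**Figure D2:**
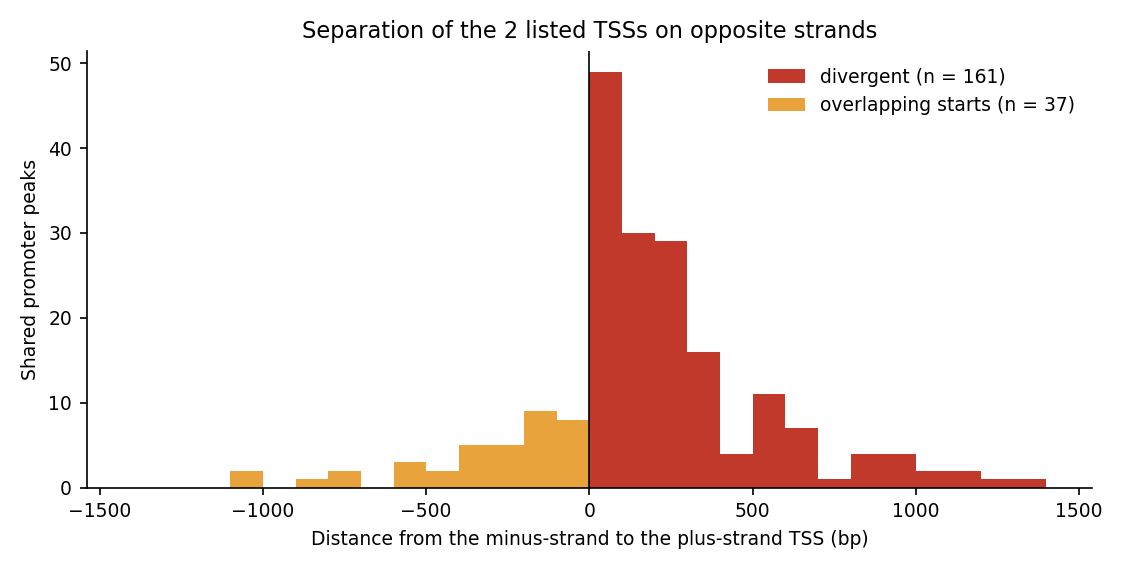
Histogram of the distance in bp from the minus-strand to the plus-strand TSS at 198 shared promoter peaks with opposed genes, in bins of 100 bp, where positive values are divergent pairs and negative values are overlapping starts. Divergent pairs crowd below 300 bp, with a median of 205 bp.

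The peaks often did not lie inside the shared interval. Nearness to it is no finding, because the rule put every centre within 1000 bp of both starts. At divergent pairs the peak centre lay between the starts in 64 of 161 cases (39.8%, 32.1 to 47.8%) and the summit in 53 (32.9%, 25.7 to 40.8%). The share depended on how much room there was. With starts under 100 bp apart 7 of 49 summits lay between them, with 100 to 300 bp 19 of 59 did, and with 300 bp or more 27 of 53 did. The summit was a median of 151 bp from the midpoint of the 2 starts, and 107 summits (66.5%) lay within 250 bp of it, on either side.

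Examples show both positions. At Nup188/Dolk, with starts 43 bp apart in the authors' list, the summit was 12.5 bp from the midpoint. At Psma2/Mrpl32, with 205 bp between the starts, it was 28.5 bp from the midpoint. At Proser1/Nhlrc3 it was 221.5 bp from the midpoint and inside Proser1, and at Hist1h2bk/Hist1h2ah 697 bp from it on the side of Hist1h2bk. Counted over all 246 peaks, whatever their arrangement, the centre was upstream of both listed TSSs at 75, downstream of both at 26, and upstream of 1 and downstream of the other at 145.

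**Figure D3:**
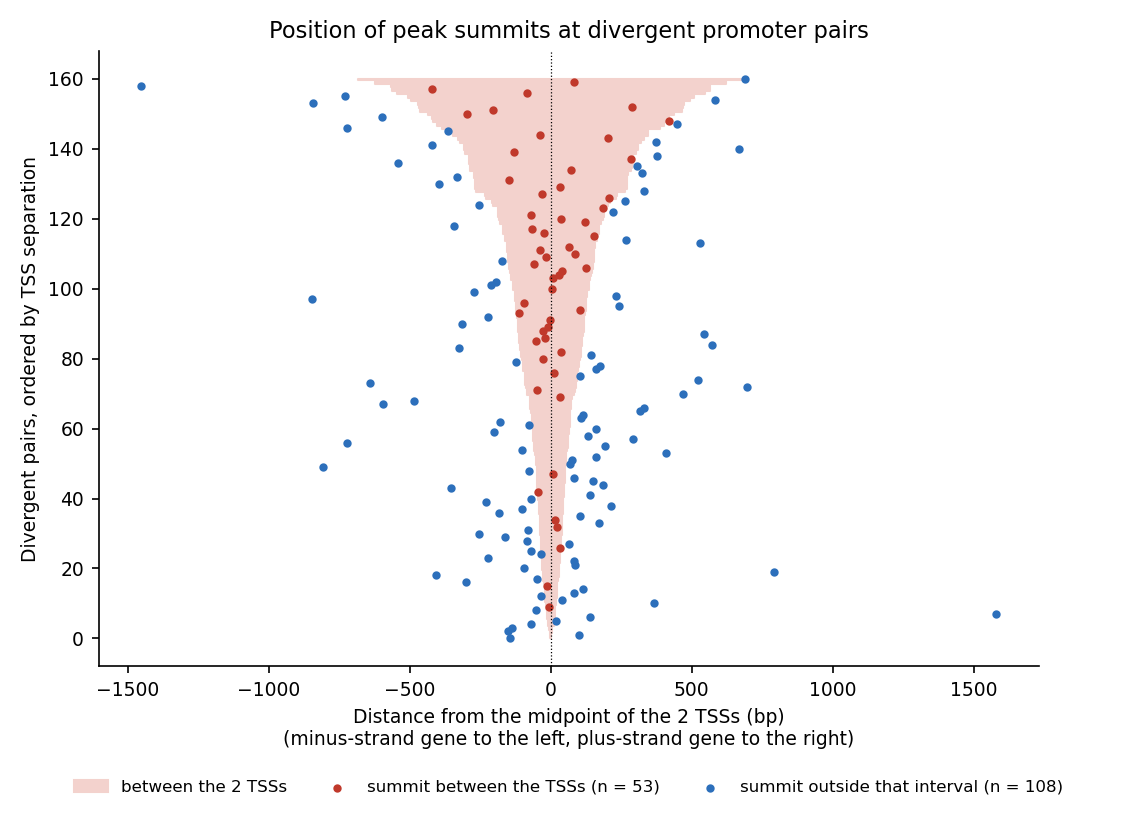
Peak summits at the 161 divergent pairs, ordered from the closest starts (bottom) to the farthest (top), against the distance in bp from the midpoint of the 2 starts, with the interval between the starts shaded. Red points, 53 summits, lie between the starts, and blue points, 108 summits, lie on either side of them.

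Peaks were then counted from the side of the genes. In the RefSeq promoter table, 1483 protein-coding genes start within 1000 bp of a divergent protein-coding neighbour. Of these, 365 (24.6%, 22.4 to 26.9%) had a peak centre within 1000 bp of a start, and of the 16009 other genes 1730 (10.8%, 10.3 to 11.3%) did. A single peak can count for both genes of a pair. Counted as pairs, 188 of 748 had a peak at either start and 179 at both. CpG-rich promoters, with observed over expected CpG of at least 0.6, made up 1288 of the 1483 in pairs and 7165 of the 16009 others, so the count was repeated by CpG content, a split chosen after the data were seen. Among CpG-rich promoters the shares were 25.5% in pairs (23.1 to 27.9%) and 20.1% outside them (19.1 to 21.0%). Among the others they were 19.0% in pairs (37 of 195) and 3.31% outside them (2.95 to 3.71%). CpG content was taken from the first listed start of each gene, while pairs and peaks were counted at any start. A gene outside the CpG-rich class can therefore count through a peak at another of its starts or at its neighbour's. How far transcription or open chromatin at these promoters moves with the peaks was not tested.

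The promoters of the shared peaks were searched for the 7 motifs. Of the 493 entries, 405 had a RefSeq promoter of 300 bp, from 250 bases before to 50 after the start, near the peak, and both genes had one at 177 peaks. The promoters were rich in CpG, at 90.9% of 405 (87.6 to 93.5%), beside 87.1% of 1517 at single-gene peaks and 48.3% of all 17492 protein-coding promoters. Their median GC content was 65.3%, the same as at single-gene peaks, against 56.3% in all. The TATA box letters TATAAA were in 4.44% of the shared promoters, 5.54% of those at single-gene peaks and 13.3% of all. Both strands of each window were read, and the windows of close starts overlap, so the 405 are not independent.

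ETS letters were more frequent at shared than at single-gene promoter peaks. CCGGAAG, whose reverse complement is CTTCCGG, was in 119 of the 405 shared promoters (29.4%, 25.0 to 34.1%), in 17.7% of single-gene ones (15.8 to 19.7%) and in 11.9% of all. With 1 promoter per peak the share was 64 of 227 (28.2%). The letters went with divergent pairs whether or not a peak was there. CCGGAAG was in 26.3% of the promoters of close divergent genes with a peak (21.9 to 31.1%) and in 29.2% of those without one (26.5 to 31.9%). Outside such pairs it was in 17.3% with a peak and in 9.52% without. Within the shared peaks it did not go with strength: the 81 peaks with CCGGAAG had a median of 19.8-fold and 60 tags, and the 146 without it 19.7-fold and 62 tags.

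The letters of Bcl6 and STAT sites were about as frequent as elsewhere. TTCCNNGAA, read as TTCNNGGAA on the other strand, was in 22 of 405 shared promoters (5.43%, 3.44 to 8.11%), in 4.35% at single-gene peaks and in 4.73% of all. The Bcl6 core TTCCTAGAA, which is one form of it, was in 0 of 405, which allows a share of up to 0.907%, and in 0.372% of all. The 17 shared peaks with a TTCCNNGAA match had a median of 18.9-fold and the 210 without one 19.9-fold. A window of 300 bp covers only a part of most peaks, and no match says only that the letters are not in that window.

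Sp and NF-Y letters did not set the shared promoters clearly apart from single-gene ones, as the intervals overlapped. GGGCGG was in 73.1% of shared promoters (68.5 to 77.3%), in 78.6% of single-gene ones (76.5 to 80.7%) and in 46.3% of all. Both kinds of promoter peak thus had Sp letters more often than promoters in general. CCAAT was in 38.0%, 34.1% and 39.0%. The NRF1 core GCATGCGC was in 4.94%, 5.93% and 3.61%, and the interval at the shared promoters (3.04 to 7.52%) spans the other values. Within close divergent pairs, GGGCGG was in 73.4% of promoters with a peak (68.6 to 77.9%) and in 64.8% of those without (61.9 to 67.6%). CCAAT went the other way, at 37.5% (32.5 to 42.7%) and 45.1% (42.1 to 48.1%), with intervals that just overlap.

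**Figure D4:**
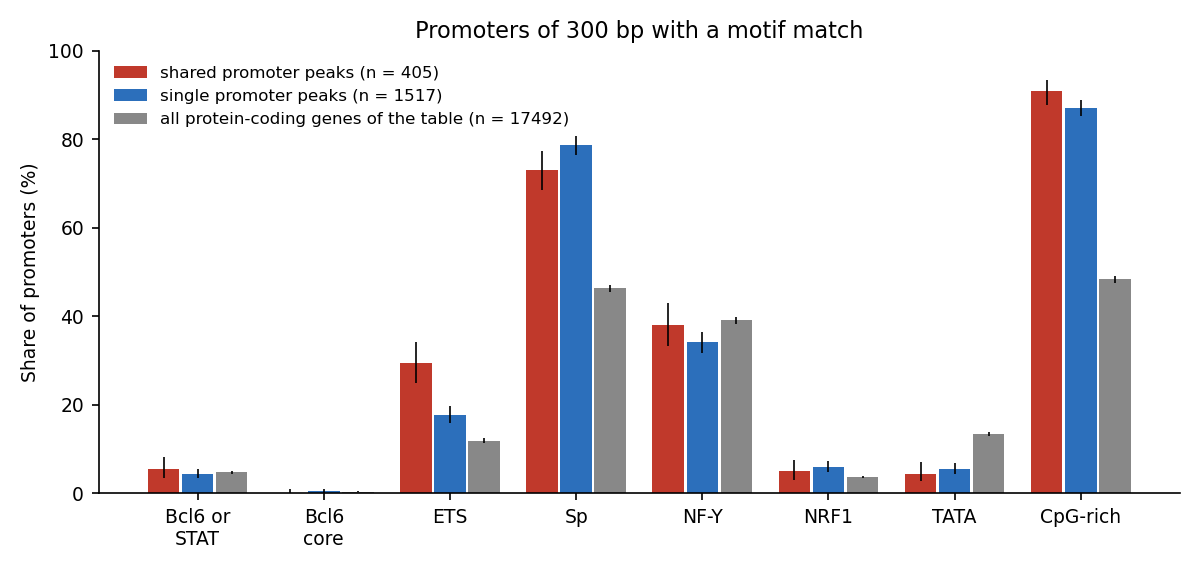
Share in percent of 300 bp promoters with a match to each motif, and with CpG-rich sequence, at shared promoter peaks, at single-gene promoter peaks and over all protein-coding genes, with exact 95% binomial intervals as error bars. ETS letters are at 29.4%, 17.7% and 11.9%, while the Bcl6 or STAT letters are near 5% in all groups.

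The TTCCNNGAA matches nearest to the top of the list by fold are shown with 10 bases on either side, each read along the strand of the gene named, with the 9 matching letters in capitals. Dis3, the catalytic subunit of the RNA exosome, has its match 141 bp before its start (chr14:99099893-99099921). Sympk, a scaffold of the polyadenylation machinery, has 2 matches, 180 and 124 bp before its start (chr7:19024187-19024215 and chr7:19024243-19024271). Mrpl50 has 2 as well (chr4:49521225-49521253 and chr4:49521140-49521168), the second of which lies between it and the zinc finger gene Zfp189. Rbak, a zinc finger protein that binds the retinoblastoma protein, has 1 before its start, 34 bp from the summit (chr5:143180803-143180831). Rnf121, a ubiquitin ligase gene with the same fold as Rbak, has 1 before its start, 106 bp from the summit (chr7:102065317-102065345).
Dis3: agctcactccTTCCCGGAAgccagtcgga
Sympk, farther match: ggaactccatTTCCCAGAAgccttcgttc
Sympk, nearer match: cggactacatTTCCCAGAAggcatggcgc
Mrpl50, farther match: acccggagccTTCGCGGAAccgctccaac
Mrpl50, nearer match: cgaactacatTTCCCGGAAtgcataggtc
Rbak: gaactcggacTTCCGGGAAgatgctgcac
Rnf121: acttttcgttTTCCGAGAAcgctctcctg

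Both Sympk windows hold the same 9 letters, TTCCCAGAA, and Dis3 and the nearer Mrpl50 window hold TTCCCGGAA. In the Dis3 and Rbak windows the ETS letters, CCGGAAG or its reverse complement, overlap the match, so these matches are not separate from an ETS match. Sympk/Foxa3 had 31.5-fold enrichment from 72 tags, with a summit 119 bp from the nearer match. Dis3/Pibf1 had 33.5-fold from 42 tags and a summit 184 bp away. Zfp189/Mrpl50 had 26.6-fold from 37 tags and a summit 48 bp from the farther match, and Rbak/4933411G11Rik 21.3-fold from 52 tags. Rnf121/Trpc2 had 21.3-fold from 51 tags. At other peaks the match was remote, as at Tfpt/Prpf31, where it lay 903 bp from the summit.

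Genes of RNA processing formed the largest functional group at the shared peaks. Lists were built from patterns in gene symbols, so that membership follows the name and not a curated function, and they are given as counts without a test. The splicing and RNA processing list had 21 of the 491 genes (4.28%, 2.67 to 6.46%), beside 1.87% of the 1922 genes at single-gene peaks and 1.00% of 21900 protein-coding genes. Their 21 peaks had a median of 18.9-fold, from 11.2 to 35.5, against 19.7 over all shared peaks. Those of high fold included Lsmd1/Cyb5d1, which the pattern took by the letters Lsm alone, Ints9/Hmbox1 at 33.7-fold from 126 tags and Sppl2b/Lsm7 at 31.9-fold from 35 tags. Lsm7 belongs to the ring of proteins that binds U6 small nuclear RNA. The lowest was Hnrnpa1/Cbx5, with a heterogeneous nuclear ribonucleoprotein gene, at 11.2-fold from 141 tags over 3089 bp.

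Histone genes came next, with 13 genes (2.65%, 1.42 to 4.49%) at 7 peaks, beside 0.937% at single-gene peaks and 0.416% of protein-coding genes. Core histone genes lie in clusters of close, often divergent pairs. Hist1h2bk/Hist1h2ah had 34.2-fold from 80 tags, H1fx/Gm5577 27.5-fold from 131 tags, Hist2h3c2/Hist2h2aa2 25.5-fold from 24 tags in 356 bp, and Hist1h2ac/Hist1h2bc 23.0-fold from 41 tags. Apart from H1fx/Gm5577, each of these 7 peaks had 2 histone genes within the limit, but some reached neither start. Hist1h2bk/Hist1h2ah was 1019 bp wide with its centre 788 and 966 bp from the starts. Hist1h2ac/Hist1h2bc was 874 bp wide at 730 and 981 bp, and Hist2h3c2/Hist2h2aa2 356 bp wide at 523 and 673 bp. Histone genes are near-identical copies, and the sources used here do not say how reads that fit several copies were aligned, so these values are uncertain.

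Mitochondrial genes were represented by 8 genes of the mitochondrial ribosome (1.63%, 0.706 to 3.19%) and 7 of the respiratory chain (1.43%, 0.575 to 2.92%). At single-gene peaks these lists made up 0.572% and 0.364%, and among protein-coding genes 0.388% and 0.521%. The 8 mitochondrial ribosome peaks had a median of 23.4-fold, led by Psma2/Mrpl32 at 35.5-fold, Zfp189/Mrpl50 and Gga3/Mrps7 both at 26.6-fold, and Mrps21/C920021L13Rik at 24.8-fold with starts 6 bp apart. Only Mrps34/Eme2 of these was wider than 2 kb. The respiratory chain list had Ndufa13/Tssk6 at 26.9-fold, Kbtbd4/Ndufs3 at 25.3-fold, Atp5h/Kctd2 at 24.7-fold and Sdhaf2/Cpsf7 at 18.9-fold. Ndufa13 and Ndufs3 are subunits of complex I, and Atp5h is one of the ATP synthase. Sdhaf2 helps to assemble complex II and faces Cpsf7, a cleavage factor of messenger RNA, with 35 bp between their starts.

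A further member of the respiratory list, Atp5j, was chosen after its values were seen, because its partner is Gabpa, the gene of the ETS factor named above. Gabpa/Atp5j had 14.2-fold enrichment from 60 tags, below the median, and its 2 starts overlapped by 501 bp.

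The chaperone list had 8 genes (1.63%, 0.706 to 3.19%), beside 0.780% at single-gene peaks and 0.438% of protein-coding genes. Dnajc2/Psmc2, which pairs a ribosome-bound Hsp40 with a proteasome ATPase across 32 bp, had 24.9-fold from 33 tags. Gm20503/Dnajc25 had 23.6-fold, Hsp90b1/BC030307, with the endoplasmic reticulum chaperone Grp94, 20.7-fold, and Hspd1/Hspe1 19.8-fold. The proteasome list had 3 genes (0.611%, beside 0.208% at single-gene peaks and 0.237% of protein-coding genes), of which Psma2 and Psmc2 are described with their partners, and Psma7 with Ss18l1 had 22.4-fold.

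Genes of the cytosolic ribosome and of translation were present at shares close to those of single-gene peaks. The ribosomal list had 6 genes (1.22%, 0.450 to 2.64%, beside 1.14% at single-gene peaks and 0.393% of protein-coding genes), with 4 of their 6 peaks wider than 2 kb and a median of 23.5-fold. Rpl15/Nkiras1 had 31.6-fold from 73 tags, Lrsam1/Rpl12 28.9-fold from 127 tags, Rpl7a/Med22 25.5-fold from 119 tags and Rpl9/Lias 21.6-fold from 55 tags. Translation factors and tRNA synthetases had 5 genes (1.02%, 0.331 to 2.36%, beside 1.04% and 0.502%), led by the tyrosyl-tRNA synthetase pair Yars/S100pbp at 27.8-fold and Eif1ad/Banf1 at 21.3-fold. The list of ribosome biogenesis had 3 genes (0.611%, beside 0.260% and 0.247%), with Ankra2/Utp15 at 28.2-fold, Dhrs1/Nop9 at 20.3-fold and Mbtd1/Utp18 at 17.5-fold.

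Transcription and genome maintenance were represented by a few genes each. The transcription machinery list had 6 genes (1.22%, beside 0.780% at single-gene peaks and 0.557% of protein-coding genes), with Tspan4/Polr2l at 32.8-fold, Rpl7a/Med22 at 25.5-fold, Supt20 at 23.9-fold and Taf11/Anks1 at 20.8-fold. Polr2l is a small subunit of RNA polymerase II, Med22 one of Mediator and Taf11 one of TFIID. The DNA repair list had 5 genes (1.02%, beside 0.728% and 0.525%), with Lrrc14/Recql4, which holds a RecQ helicase gene, at 31.5-fold, Gm10517/Trp53bp2, an apoptosis regulator taken by its letters, at 18.6-fold, Vps29/Rad9b at 17.0-fold and 1700065D16Rik/Atr at 16.1-fold. Taf9/Rad17, a TFIID subunit and a checkpoint clamp loader on opposite strands, had 12.2-fold from 67 tags. DNA replication had 2 genes (0.407%, beside 0.364% and 0.237%), Pole with Pxmp2 at 14.4-fold and Tk1 with Afmid at 13.3-fold, and cell cycle and mitosis 7 (1.43%, beside 1.98% and 1.12%). Of these, the cohesin regulator pair Cdca5/Zfpl1 had 25.7-fold, the kinetochore pair Ptrhd1/Cenpo 25.6-fold and Myo9b/Haus8 21.3-fold, while Mllt11/Cdc42se1 at 19.2-fold fell in by the letters Cdc alone.

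Ubiquitin, trafficking and zinc finger genes had shares slightly below those at single-gene peaks. The ubiquitin list had 12 genes (2.44%, 1.27 to 4.23%, beside 3.33% at single-gene peaks and 1.63% of protein-coding genes), led by Kctd21/Usp35 at 28.4-fold and Usp20/BC005624 at 26.0-fold. The zinc finger list had 11 (2.24%, beside 2.55% and 2.29%), led by Zfp511/Tubgcp2 at 29.3-fold. The trafficking list had 10 (2.04%, beside 2.45% and 1.53%), led by Atg12/Ap3s1 at 30.6-fold and Exoc8/Sprtn at 27.6-fold. The centrosome and cilium list had 3 (0.611%, beside 0.468% and 0.416%), with Tmem138/Cyb561a3 at 24.2-fold, Cc2d1a/4930432K21Rik, taken by its letters, at 23.9-fold and Kcnab2/Nphp4 at 17.8-fold.

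Signalling and developmental regulators had counts of 0 to 4 per list. Kinases and phosphatases had 4 genes (0.815%, 0.222 to 2.07%, beside 2.45% at single-gene peaks and 1.33% of protein-coding genes), led by Stk16/Glb1l at 28.4-fold, and 1 of them, Camkmt, is a methyltransferase taken by its letters. Chromatin and histone modifiers had 4 (0.815%, beside 2.03% at single-gene peaks and 0.753% of protein-coding genes), including Asxl2/1110002L01Rik at 22.8-fold, Ing2/AA386476 at 13.7-fold and the heterochromatin protein gene Cbx5. The fourth, Mllt11, was taken by its letters. The Notch, Wnt, Hedgehog, FGF, IGF and BMP list had 0 of 491 genes, which allows a share of up to 0.748%, beside 26 of 1922 (1.35%) at single-gene peaks and 0.845% of protein-coding genes. The JAK/STAT and cytokine feedback list had 0, beside 13 of 1922 and 0.662% of protein-coding genes, and the collagen and matrix list had 0, beside 4 and 0.301%. Both of these shares of protein-coding genes lie below the 0.748% that a count of 0 allows. The neural and homeobox transcription factor list had 1 gene (0.204%, 0.00516 to 1.13%, beside 0.884% at single-gene peaks and 1.01% of protein-coding genes). The interval spans both of the other shares. This gene was Foxa3, a forkhead factor best known from the liver, which shares its promoter with Sympk at 31.5-fold.

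The lists differ in how many of their genes lie in close pairs, where over all genes 1483 of 17492 do. Of the signalling pathway list 2.86% of the genes with a promoter entry have a divergent neighbour within 1000 bp, of the neural and homeobox list 1.95%, of the kinase list 8.23% and of the chromatin list 11.9%, against 33.3% of the mitochondrial ribosome, 22.4% of the splicing and 25.6% of the chaperone list. Within the splicing list, 16 of 41 genes in close pairs had a peak (39.0%, 24.2 to 55.5%) and 38 of 142 outside them (26.8%, 19.7 to 34.8%). Within the mitochondrial ribosome list these were 7 of 25 and 9 of 50, and within the chaperones 4 of 20 and 13 of 58. These 3 pairs of intervals overlapped. They did not in 3 of the 24 lists. The ubiquitin list had 12 of 25 in pairs (48.0%, 27.8 to 68.7%) against 52 of 256 (20.3%, 15.6 to 25.8%). The zinc finger list, only just apart, had 8 of 23 (34.8%, 16.4 to 57.3%) against 50 of 396 (12.6%, 9.52 to 16.3%). The provisional, antisense or opposite-strand names had 11 of 64 (17.2%, 8.90 to 28.7%) against 48 of 1439 (3.34%, 2.47 to 4.40%). Besides the chaperones, the share was lower in pairs than outside them for histones (15.0% against 26.9%), chromatin modifiers (18.75% against 33.1%) and translation (21.4% against 27.9%). The same held for DNA repair (14.3% against 18.3%), DNA replication (12.5% against 20.6%) and JAK/STAT (0 against 8.70%), all with overlapping intervals.

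**Figure D5:**
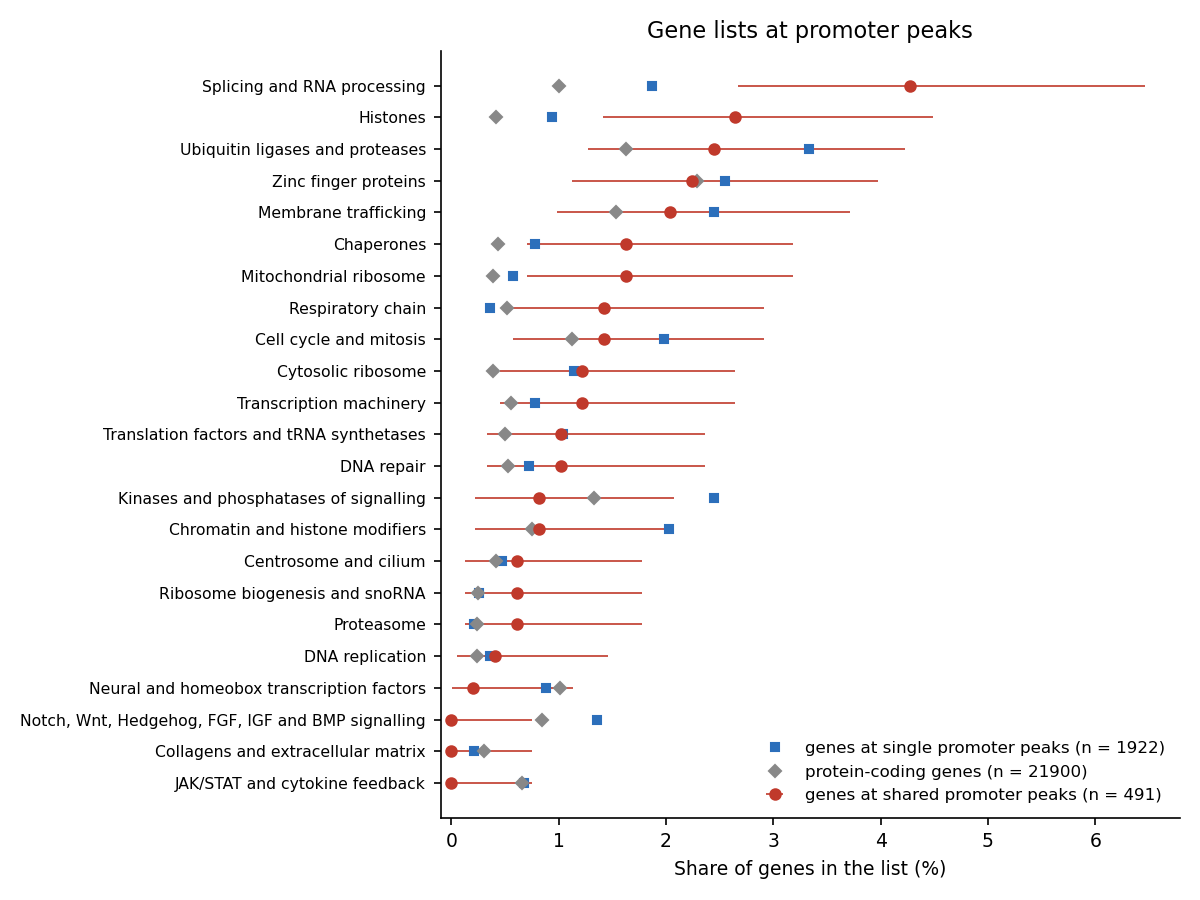
Share in percent of the genes at shared promoter peaks (red points, with exact 95% binomial intervals), of those at single-gene promoter peaks (blue squares) and of all protein-coding genes (grey diamonds) that belong to each list. Splicing and RNA processing is at 4.28%, 1.87% and 1.00%, and histones at 2.65%, 0.937% and 0.416%, while the signalling, JAK/STAT and collagen lists are at 0 among shared promoters.

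In 24 of the 245 pairs both genes belonged to one or another of the 23 functional lists, in 90 pairs 1 gene did, and in 131 neither did. Both genes were of the same list in 9 pairs, of which 6 were histones. The others were Hspd1/Hspe1, the ubiquitin ligase adaptors Fbxo44/Fbxo2 and the zinc finger genes Zscan10/Zfp13. Besides, 48 genes (9.78%, 7.30 to 12.8%) had provisional, antisense or opposite-strand names, beside 3.38% at single-gene peaks and 8.14% of protein-coding genes. The interval at shared promoters spans the share of protein-coding genes, but the gene sets differ. Of the entries at shared peaks, 13 were long non-coding RNA genes and 22 matched no gene. The comparison with protein-coding genes is therefore not like for like. The letters at the end of its symbol put Uros, a heme synthesis gene, among the 48 genes. Their 48 peaks had a median of 21.4-fold. Among them 2610020H08Rik/Eri2 had 33.5-fold, besides Dapk3/4930442H23Rik, Rmnd1/1700052N19Rik and 4732415M23Rik/Chmp1a above.

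The depth behind these values is that of the pools. The peak caller started from 56836596 ChIP and 12808138 input tags and kept 11718276 (20.6%) and 5048582 (39.4%) after it removed duplicates at the same position. The 246 shared peaks held 17500 of these tags, or 0.149% of the ChIP tags kept. A typical shared peak therefore rests on about 61 tags, and Hist2h3c2/Hist2h2aa2, with the fewest, on 24.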

How the data were processed

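Chromatin precipitated with an antibody to Bcl6 (3 libraries) and input DNA (3 libraries) were sequenced (Genome Analyzer IIx, according to the protocols in the labels) and pooled for analysis, per the series' design. Bowtie and mm10 are named in the submitters' processing notes; its version is not stated in them. Peaks were called by the authors with MACS 1.4.2 at a p-value cutoff of 1e-05 with 1 tag kept per position, per the file headers. The deposited table gives raw tag counts per peak, a fold enrichment (ratio of ChIP over the local background of the input), a p-value score of −10 log10 p, whose column name was damaged and which was recognised by its order and its minimum of 50.03, and an empirical FDR as a percent. Genes and signed distances from the peak centre to the TSS were deposited as the output of GREAT 3.0.0, per the file headers.

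Peaks were joined to genes by peak number. A TSS was placed from its distance and from the gene ends of the RefSeq table of GRCm38.p6, accepting a gap of at most 1000 bp; the strand equalled that of the promoter table for 408 of 412 entries compared. Of 493 entries 440 matched by current and 31 by older symbol, and 22 did not match. Computation used Python 3.11.15 with pandas 2.3.3, numpy 2.4.6 and scipy 1.17.1, and the functions were tested on simulated data. Shares have exact (Clopper-Pearson) 95% binomial intervals and medians exact order-statistic intervals. With 1 pooled value per peak no test between groups was possible. Duplicates at the same position were removed by the peak caller before counting, so the highest tag densities are capped.

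The members, lists and alternatives were chosen with earlier results of these data known. The genes named are the 10 shared peaks of highest fold, the 10 of highest score, those with 3 or more entries, the 4 closest and 4 farthest pairs, the 4 of lowest fold, the 4 widest, the 5 on each side of the limit and up to 4 per list by fold; others are said to have been chosen after their values were seen. A member that this rule names is not reported here. No genome sequence was used, so only promoter windows were searched.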

Additional observations from a re-analysis of the deposited data

How the results depend on the processing

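Of 90 recomputed values 76 stayed within the limit set and 14 moved beyond it. That limit was the 95% interval of a share or median, and a fixed ratio for a number of peaks. Reversal was not a possible outcome of the rule. Keeping only peaks with FDR of at most 5%, or leaving out chromosome Y and unplaced sequence, kept all 246 shared peaks, so those values could hardly move. With only peaks at or above the median score, 128 shared peaks were left, with medians of 22.9-fold, a score of 95.0, 72 tags and 1599 bp, and 19.5% reached 30-fold and 31.25% exceeded 2 kb. With a TSS limit of 500 bp, 9.74% of promoter peaks were shared, with medians of 57.5 tags and 1379 bp, and 12.9% exceeded 2 kb. With protein-coding genes only, 9.76% were shared. Among peaks of at most 2 kb the medians were 55 tags and 1317 bp. By construction these settings keep fewer, higher-scoring, nearer or narrower peaks. A limit of 2000 bp gave 294 peaks. No paired analysis was possible because the 3 libraries of each kind were pooled before peaks were called, and for the same reason no replicate could be left out. Some alternatives, such as 1 promoter per peak, CpG-rich promoters only and the strand from the promoter table, were chosen after seeing the data. A peak rests on 24 to 243 tags, which limits how finely peaks can be ranked.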

Other observations

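Other peaks of the same genes were counted. Of the 491 genes at shared promoter peaks, 66 (13.4%) had a further peak in the authors' list, beside 426 of 1922 genes (22.2%) at single-gene promoter peaks, and 9 had 3 or more peaks in all. GREAT extends a gene's region by up to 1000000 bp but stops at neighbouring genes. Genes with a close neighbour can therefore be given fewer further peaks by the rule itself, so these shares are not like for like. The following were chosen after their values were seen. Mgme1, a mitochondrial exonuclease gene, had 4 peaks, of which the shared one had 18.9-fold enrichment and another, 114 kb upstream, 76.8-fold. Hist1h3c had a second peak 5.68 kb downstream of its TSS with 358 tags and 48.9-fold, against 16.9-fold at the shared promoter. Efnb2, an ephrin ligand gene, had 17.0-fold at the promoter and 47.3-fold at a peak 176 kb downstream. Vps52 had 19.9-fold at the promoter shared with Rps18 and 41.7-fold at a peak 3.76 kb upstream, which is a promoter peak of another gene. Gabpa had 14.2-fold at the shared promoter and 15.9-fold at a peak 10.2 kb upstream.

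Neighbouring peaks within 10 kb were present at 40 of 246 shared peaks (16.3%, exact 95% interval 11.9 to 21.5%), at 14.1% of single-gene promoter peaks and at 27.2% of peaks away from promoters. By chromosome, the share of promoter peaks that were shared was highest on chromosome 3, with 18 of 93 (19.4%), and lowest on chromosome X, with 1 of 22. Fold at the 227 shared peaks with a promoter entry had a Spearman's rho of −0.04 with the mean CpG content of their promoters, a description across peaks of 1 data set.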
